A study of Mus musculus with 8 samples.

Results

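Wild type mouse liver 24 h after partial hepatectomy was compared with unoperated wild type liver, in 4 of the 8 arrays of the study. The members were all probe sets of the arrays titled as normal liver at 24 h and at 0 h: 45037 probe sets on each array, left after 64 control probe sets were set aside, of which 14450 genes could be tested. All animals were male C57BL/6 mice of 7 to 10 weeks with both copies of Tob1, which codes for an antiproliferative protein. The 24 h group had its median and left lateral lobes, about 2/3 of the liver, ligated under ketamine and xylazine, and the remaining liver was collected 24 h later. The 0 h group consisted of normal adults without surgery, so that anaesthesia, laparotomy and loss of liver mass cannot be told apart here. Each group had 2 arrays, and each array held RNA pooled from 3 different animals. These pools are called pool 1 and pool 2 below, and the numbers do not match a pool at 0 h to one at 24 h. The other 4 arrays, from Tob1 null liver, entered the estimate of the spread between pools and 1 comparison of the responses.

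The adult liver is almost quiescent, yet its remaining lobes regrow after resection. Hepatocytes are primed by cytokines such as IL-6, enter the cell cycle under growth factors such as HGF and EGF receptor ligands, copy their DNA and divide, while they go on secreting plasma proteins and handling nutrients, bile acids and foreign compounds. In mice the wave of hepatocyte DNA synthesis is known to come after the first day, so that a liver at this time is in the approach to it.

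The arrays carried the signature of liver. Alb, which codes for serum albumin, gave normalised log2 signals of 13.52 and 13.51 at 0 h and of 13.51 and 13.48 at 24 h, which overlap. The highest 0 h mean of any gene was 13.77, so a signal this near the top of the scale had little room to rise. None of the 6 hepatocyte markers tested passed the test in either direction. Tob1 gave 10.46 and 10.53 at 0 h and 9.87 and 10.20 at 24 h, a difference of -0.46 with a standard error (SE) of 0.15 and an adjusted p of 0.099. Both 0 h pools were above both 24 h pools, but the difference did not pass, and the other Tob1 probe set gave 0.01. The Pearson correlation over probe sets was 0.957 between the 0 h pools and 0.960 between the 24 h pools, against 0.935 to 0.947 between the times. The 3' minus 5' log2 signal of the Actb control, a sign of RNA integrity, was 1.04 and 1.40 at 0 h and 1.03 and 0.91 at 24 h.

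Hepatectomy was followed by a change in 1331 of 14450 genes (9.21%) at an adjusted p under 0.05 in limma's moderated test with Benjamini-Hochberg adjustment. Of these, 597 (4.13%) rose and 734 (5.08%) fell, 289 and 384 of them by at least 2-fold. In every called gene the 2 pools of one time lay on the same side of both pools of the other. That is common on these arrays, since both 24 h pools were above both 0 h pools in 29.4% of all genes and below them in 32.7%. The median difference over all genes was -0.03 on the log2 scale, with 47.5% of genes above 0 and 52.4% below. The counts of a group are to be read against these shares, and 1 call among some 20 genes is near them. Named genes that passed kept their direction without any 1 array, which their lack of overlap nearly fixed in advance. Among named genes that did not pass, 2 to 5 changed sign without 1 of the wild type arrays. The number of calls rested on single arrays. It fell to a very small part without either pool at 0 h or without pool 1 at 24 h, and much less without pool 2 at 24 h. It was 333 and 343 without pool 1 and pool 2 of unoperated Tob1 null liver. This holds for each group count below.

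The genes that fell mostly stood at high levels before surgery. Their median log2 signal at 0 h was 8.30, against 6.76 for the genes that rose and 6.23 for all genes. Among the 3613 genes with the highest 0 h level 12.1% fell and 5.45% rose. Among the 3613 with the lowest, all at or under 4.57, 0.83% fell and 3.04% rose, and this range reaches down past the filter limit of 3.6. A gene near that limit has little room to fall, and the 0 h level is also the term subtracted in the difference. Part of this pattern is thus built into the comparison.

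**Figure D1:**
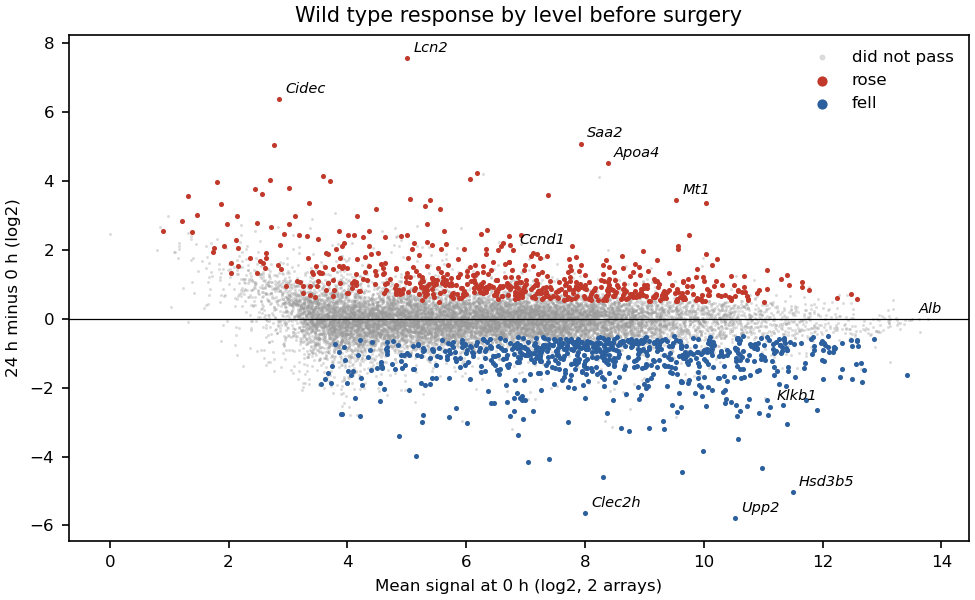
Each point is a gene, placed by its mean normalised log2 signal in the 2 unoperated arrays (x) and by the 24 h minus 0 h difference in log2 (y), with genes that rose in red, genes that fell in blue and genes that did not pass in grey. The falls gather at high 0 h signals, while the rises spread over the whole range.

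The largest rise of all named genes, that of Lcn2, and 4 of the 10 largest rises from a measured 0 h level were in the acute phase group. These are plasma proteins that hepatocytes secrete after injury, many under IL-6, its effector STAT3 and the C/EBP factors. Lcn2, coding for lipocalin 2, which binds bacterial siderophores, stood at 4.98 and 5.05 at 0 h and at 12.86 and 12.33 at 24 h. Its 24 h pools were far above its 0 h pools, a difference of 7.58 (SE 0.28, adjusted p = 0.0017), or 192-fold. Saa2, a serum amyloid A apolipoprotein, went from 8.29 and 7.58 to 13.13 and 12.92 (5.09, SE 0.30, adjusted p = 0.0051). The orosomucoid Orm2 went from 7.23 and 7.54 to 10.84 and 11.12 (3.59, SE 0.21, adjusted p = 0.0051). In both, the pools of each time lay close together and well apart from the other time. Of 26 tested genes raised in inflammation 11 rose and 0 fell, with a median of 0.69. The others were Saa1 (3.37), Orm3 (2.77), Serpina3n, a serine protease inhibitor (2.43), Apcs, serum amyloid P (2.04), Lrg1 (1.07), Itih3 (0.84), Orm1 (0.72) and the haemoglobin scavenger Hp (0.58). The differences for Fga and Fgg, coding for fibrinogen chains, were 0.29 and 0.26 and did not pass. Those of the Saa family members Saa3 and Saa4 were -0.76 and -1.44, also without passing. Saa1 and Saa2 are near-identical copies, and so are the Orm genes, so their probe sets may read each other's RNA.

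The stretch before the start site was read for all tested genes with a listed promoter, and the acute phase group is described first. Sequences come from RefSeq (GRCm38.p6), which held a promoter for 11555 of the 14450 genes. The 250 bases before the first listed start were searched on both strands for 20 motifs, and the motifs given for each group were picked after their shares had been seen. The C/EBP letters TTGCNNAA were present in 11 of 21 acute phase promoters (52.4%), against 7.73% of all tested genes. The STAT letters TTCNNNGAA were present in 6 of the 21 (28.6%), against 6.18% of all. Members that did not pass carried the letters as well, among them Saa3, Saa4, Hpx, Fga, Fgb and Steap4 for C/EBP. For STAT these were Fga, Fgb, Itih4, Hamp and Steap4, and Apcs was the only called holder. Called Serpina3n, Lrg1 and Itih3 lacked both motifs. The stretches of Saa1 and Saa2 are nearly alike, as are those of Orm2 and Orm3. The 70 bases below come from the called genes that hold a match, on the strand of the gene, with the match in capitals (C/EBP in the first 5, STAT in Apcs). A match of letters is a description and shows no binding.
Saa1 (chr7:46743123-46743192, minus strand): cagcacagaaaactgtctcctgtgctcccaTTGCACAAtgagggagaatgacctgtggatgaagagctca
Saa2 (chr7:46751620-46751689, plus strand): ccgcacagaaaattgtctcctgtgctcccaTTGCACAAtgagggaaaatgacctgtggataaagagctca
Lcn2 (chr2:32387916-32387985, minus strand): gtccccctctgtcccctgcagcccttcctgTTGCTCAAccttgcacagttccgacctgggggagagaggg
Orm2 (chr4:63362299-63362368, plus strand): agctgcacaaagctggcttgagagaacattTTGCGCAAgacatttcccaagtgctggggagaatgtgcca
Orm3 (chr4:63356007-63356076, plus strand): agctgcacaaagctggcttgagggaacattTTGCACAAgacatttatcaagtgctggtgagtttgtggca
Apcs (chr1:172895235-172895304, minus strand): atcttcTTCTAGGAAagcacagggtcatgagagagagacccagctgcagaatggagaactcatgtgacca

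In a group of 19 genes of IL-6 family and related cytokine signalling 4 rose and 1 fell. Osmr, the oncostatin M receptor, went from 4.24 and 3.50 to 6.93 and 5.90 (2.55, SE 0.45, adjusted p = 0.029), and both 24 h pools were above both 0 h pools. Il1r1, the interleukin 1 receptor, rose by 1.92, Il22ra1, a subunit of the interleukin 22 receptor, by 1.89, and Il6st, the shared signal-transducing subunit gp130, by 0.73. Il1rap, the accessory chain of the interleukin 1 receptor, went from 10.63 and 10.60 to 9.55 and 9.60 and fell by 1.04, while its other 3 probe sets lay between -0.02 and 0.03. Of 11 genes that inflammation lowers 2 fell, Pon1 (-0.80) and Apom (-0.71).

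Part of the interferon-inducible genes and of the complement and coagulation factors fell. Of 37 interferon genes 9 fell and 0 rose, with a median of -0.42. Psmb8, an immunoproteasome subunit, went from 7.39 and 7.31 to 5.86 and 6.13 (-1.35, SE 0.18, adjusted p = 0.019). Rsad2, coding for the antiviral protein viperin, went from 7.28 and 7.25 to 6.24 and 5.83 (-1.23, SE 0.16, adjusted p = 0.018), and neither gene's pools overlapped. Ifi47 (-1.58), Cxcl9 (-1.25), Usp18 (-1.12), Ifit1 (-0.90), Psmb10 (-0.82), Ifit2 (-0.67) and Tapbp (-0.60) were the others. The letters of the interferon-stimulated response element (TTTC repeated after 2 bases) were in 11 of 31 promoters of this group (35.5%), against 2.59% of all tested genes. They are shown for Ifit1, which has them in 2 places, and Rsad2. Called Ifit2, Ifi47, Cxcl9, Psmb8, Psmb10 and Tapbp lacked the letters. The other holders did not pass, among them Stat2, Ifit3, Irgm1 and Cxcl10.
Ifit1 (chr19:34640755-34640824, plus strand): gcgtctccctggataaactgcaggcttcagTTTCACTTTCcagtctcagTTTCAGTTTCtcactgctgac
Rsad2 (chr12:26456533-26456602, minus strand): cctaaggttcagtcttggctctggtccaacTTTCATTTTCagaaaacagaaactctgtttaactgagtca

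Of 40 complement and coagulation genes 15 fell and 0 rose, with a median of -0.47. Klkb1, plasma prekallikrein, went from 11.09 and 11.14 to 7.95 and 9.19 (-2.55, SE 0.39, adjusted p = 0.022), and pool 1 at 24 h was the lower one. Mbl2, a mannose-binding lectin, fell by 1.53, the complement component C2 by 1.42, and F7, coagulation factor VII, by 1.40. Serpind1, coding for the thrombin inhibitor heparin cofactor II, fell by 1.88.

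**Figure D2:**
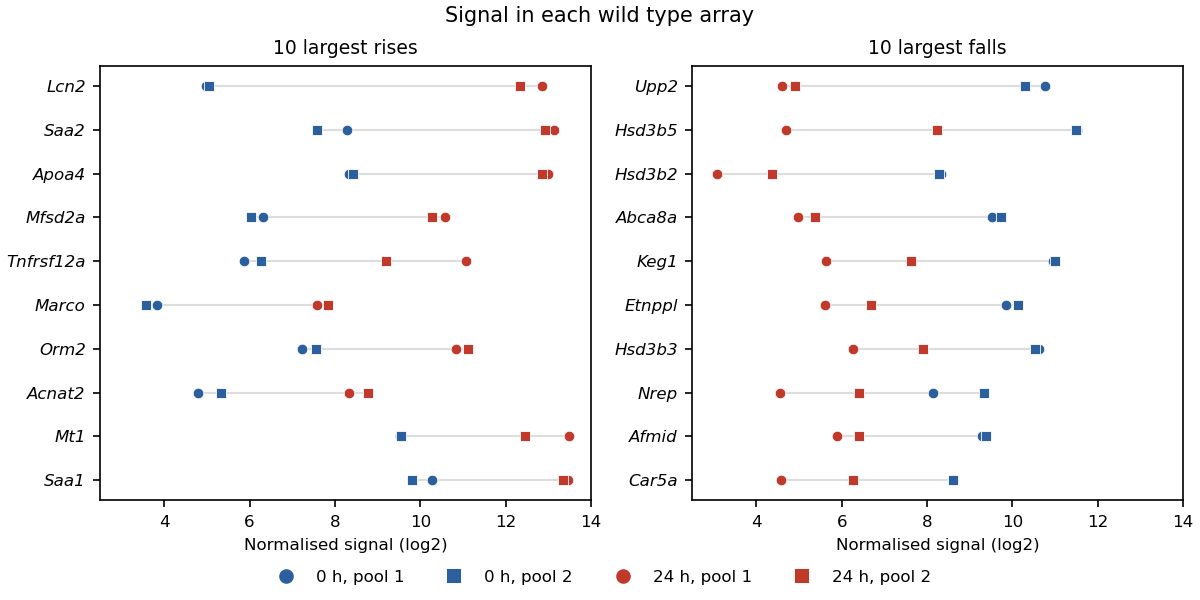
Normalised log2 signal (x) of the 10 genes with the largest rises (left) and the 10 with the largest falls (right) among those measured above the filter limit at both times, with circles for pool 1 and squares for pool 2, blue at 0 h and red at 24 h. No gene's groups overlap, which the choice of genes required. Pool 1 at 24 h is the more distant one in 7 of the 10 rises and in all 10 falls.

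Outside the acute phase group, the largest rises included genes of lipid transport, growth factor signalling and metal binding. Apoa4, an apolipoprotein of triglyceride-rich particles, went from 8.33 and 8.43 to 12.98 and 12.84 (4.53, SE 0.18, adjusted p = 0.0017). Mfsd2a, a transporter of lysophosphatidylcholine, went from 6.32 and 6.04 to 10.58 and 10.27 (4.25, SE 0.66, adjusted p = 0.023). Tnfrsf12a, coding for Fn14, the receptor of the cytokine TWEAK, went from 5.86 and 6.27 to 11.08 and 9.21 (4.07, SE 0.80, adjusted p = 0.035). The 24 h pools were alike for Apoa4 and Mfsd2a, and differed for Tnfrsf12a, where pool 1 was the higher. Mt1, coding for metallothionein, went from 9.52 and 9.54 to 13.48 and 12.46 (3.44, SE 0.77, adjusted p = 0.048). Acnat2, coding for an acyl-CoA amino acid N-acyltransferase, rose by 3.49.

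Some rises started from signals below the filter limit of 3.6, so that their size is imprecise. Cidec, a protein that enlarges lipid droplets, went from 2.38 and 3.33 to 9.80 and 8.68 (6.38, SE 0.74, adjusted p = 0.016). Sult1e1, oestrogen sulfotransferase, went from 2.78 and 2.76 to 8.41 and 7.20 (5.04, SE 0.72, adjusted p = 0.021). Both had 24 h pools far above that limit. Cgref1 rose by 4.16 and Igdcc4 by 4.02, although 1 of the 3 probe sets of Igdcc4 gave -0.14.

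In the cell cycle groups, 4 of 19 genes of G1, 3 of 45 of DNA replication and 0 of 39 of G2 and mitosis rose. Ccnd1, cyclin D1, whose rise marks the passage of hepatocytes through G1, went from 6.41 and 7.18 to 8.83 and 8.75 (2.00, SE 0.45, adjusted p = 0.0496). Its pools did not overlap, but the adjusted p sits at the threshold. No gene of the G1 group fell, and its median was 0.56. Cks1b, a cofactor of cyclin-dependent kinases, rose by 1.26, the E2F partner Tfdp1 by 0.71 and Cdk4, the kinase that cyclin D1 binds, by 0.56. Ccne1, cyclin E1, differed by 0.76 (adjusted p = 0.052) without passing, and its other probe set gave -0.90, so that its direction is uncertain. Of 13 inhibitors and pocket proteins 1 fell, the pocket protein Rbl2 (-0.92).

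Of 45 DNA replication genes 3 rose and 0 fell, or 6.67%, near the 4.13% of all genes that rose. The median of the group was 0.54, and 37 of the 45 lay above 0, where 47.5% of all genes did. Mcm2, a subunit of the helicase that is loaded before S phase, went from 4.80 and 5.19 to 7.05 and 7.80 (2.43, SE 0.47, adjusted p = 0.035). Mcm5, of the same helicase, went from 4.73 and 5.07 to 6.66 and 7.97 (2.42, SE 0.51, adjusted p = 0.042). In both, pool 2 was the higher at 24 h, and 1 of the 3 Mcm5 probe sets gave -1.04 without passing. Orc2, of the origin recognition complex, rose by 0.73, and Mcm4 (2.37, adjusted p = 0.051) and Mcm6 (2.08, adjusted p = 0.077) did not pass. Mcm10 differed by -2.86 (adjusted p = 0.071), and its 3 probe sets gave -2.86, -2.04 and 1.39, so that its direction is uncertain.

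The E2F letters TTTNNCGC were in 6 of 16 promoters of the G1 group (37.5%) and 10 of 37 of the replication group (27.0%), against 6.79% of all tested genes. The called members that hold them are shown, and the match of Mcm5 spans 2 overlapping copies on opposite strands. Called Cdk4, Cks1b, Mcm2 and Orc2 lacked the letters. Members that did not pass held them, among them Cdk6, Cdk2 and Mcm6.
Tfdp1 (chr8:13338678-13338747, plus strand): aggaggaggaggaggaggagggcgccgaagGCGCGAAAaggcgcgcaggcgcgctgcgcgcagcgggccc
Mcm5 (chr8:75109326-75109395, plus strand): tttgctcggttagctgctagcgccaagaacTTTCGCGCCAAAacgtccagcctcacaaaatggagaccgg

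Of 39 genes of G2 and mitosis 0 rose and 1 fell, with a median of -0.01. Cdk1, the mitotic kinase, gave 5.05 and 5.04 at 0 h and 4.38 and 5.84 at 24 h, which overlap. Ccna2, cyclin A2, differed by 0.02 (SE 0.18, with -0.33 from its other probe set), and Mki67, which codes for the proliferation antigen Ki-67, by -0.01 (SE 0.34). The fall was that of Pttg1, securin (-0.75). Nucleotide supply was mixed, with 3 of 23 genes higher and 3 lower. Ctps, CTP synthase, went from 5.48 and 5.77 to 8.61 and 7.73 (2.54, SE 0.29, adjusted p = 0.016), and Cad (0.92) and Dtymk (0.75) rose. Upp2, a uridine-degrading phosphorylase, went from 10.76 and 10.30 to 4.60 and 4.90 (-5.78, SE 0.26, adjusted p = 0.0028), the largest fall of all. Tk1, thymidine kinase, fell by 2.67 and Mthfd1 by 1.24.

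Genes that build ribosomes, start translation and degrade proteins rose in part. In ribosome biogenesis 7 of 38 rose and 0 fell (median 0.56), led by Nop58, a nucleolar protein of box C/D particles, which went from 6.02 and 6.64 to 8.55 and 7.88 (1.88, SE 0.30, adjusted p = 0.023). Polr1e, an RNA polymerase I subunit, rose by 1.26, Ncl, nucleolin, by 1.14 (with -0.05 from 1 of its 5 probe sets), and Nhp2 by 1.14. Among 32 initiation factors 5 rose, including Eif6 (1.83), which acts in 60S subunit maturation, and the cap-binding Eif4e (0.82). In these genes both 24 h pools were above both 0 h pools. None of the 38 cytosolic ribosomal proteins passed, although 37 lay above 0, where 47.5% of all genes did, and the median was 0.28.

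The proteasome moved by small and even steps. Of 32 subunits 9 rose and 0 fell, all 32 lay above 0 (47.5% of all genes did) and the median was 0.42. Psmc4, an ATPase of the 19S particle, went from 9.75 and 9.68 to 10.61 and 10.71 (0.94, SE 0.12, adjusted p = 0.016). The pools of each time lay close together. Of 24 cytosolic chaperones 4 rose, the chaperonin subunits Cct3 (0.79), Tcp1 (0.75) and Cct6a (0.68), and Hspa4 (0.77). For Cct3 and Hspa4 another probe set of the gene pointed the other way, at -0.45 and -0.33, neither passing.

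Of 33 genes of the endoplasmic reticulum 7 rose and 1 fell, with a median of 0.32. Creld2, induced by stress in this compartment, went from 8.96 and 9.17 to 10.54 and 10.36 (1.38, SE 0.26, adjusted p = 0.032). Manf rose by 0.91, Sdf2l1 by 0.75 and the translocon-associated Ssr2 by 0.67. Atf6, a sensor of unfolded protein, went from 7.93 and 8.05 to 6.93 and 6.92 and fell by 1.06, but its other probe sets gave 0.64 and -0.08, neither passing. The stress response element, CCAAT and CCACG held 9 bases apart, was in 9 of 27 promoters of this group (33.3%), against 0.13% of all tested genes. Of the called members of this group that were searched, only Creld2 held it, on the opposite strand. The other holders did not pass, among them Hspa5, Hsp90b1 and Calr.
Creld2 (chr15:88819490-88819559, plus strand): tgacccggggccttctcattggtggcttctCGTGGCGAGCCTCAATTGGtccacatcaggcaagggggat

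Atf4 target genes, which supply amino acids under stress, had 4 of 27 members higher and 0 lower. Psat1, of serine synthesis, went from 3.80 and 4.22 to 6.66 and 6.23 (2.43, SE 0.27, adjusted p = 0.016). Asns, asparagine synthetase, went from 5.20 and 4.97 to 7.19 and 7.03 (2.03, SE 0.27, adjusted p = 0.018), with no overlap in either gene. Gpt2 (1.24) and Slc3a2 (0.66) rose too. Of 22 tRNA synthetase genes Aimp2 (0.91) and Gars (0.77) rose. The Atf4 and C/EBP response letters TGATGNAA were in 6 of 25 promoters of the Atf4 group (24.0%) and 3 of 15 of the synthetases (20%), against 2.16% of all tested genes. Of the called members Asns and Gars held them, while Psat1, Gpt2, Slc3a2 and Aimp2 did not. The other holders did not pass, among them Chac1, Fgf21 and Aars.
Asns (chr6:7693210-7693279, minus strand): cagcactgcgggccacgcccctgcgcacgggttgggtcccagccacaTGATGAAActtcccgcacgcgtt
Gars (chr6:55037931-55038000, plus strand): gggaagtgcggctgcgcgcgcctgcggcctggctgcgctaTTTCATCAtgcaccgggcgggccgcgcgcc

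The same letters were counted over all 484 genes that rose and all 593 that fell and had a promoter. C/EBP letters were in 8.26% of the first and 11% of the second, against 7.73% of all tested genes, and E2F letters in 8.88% and 5.40%, against 6.79%. STAT letters were in 5.99% and 5.56%, against 6.18%, and the Atf4 letters in 2.69% and 1.85%, against 2.16%. The interferon element was in 1.24% and 3.54%, against 2.59%, and the stress response element in 0.62% (3 promoters) and 0 promoters, against 0.13%. No test was made of these shares.

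**Figure D3:**
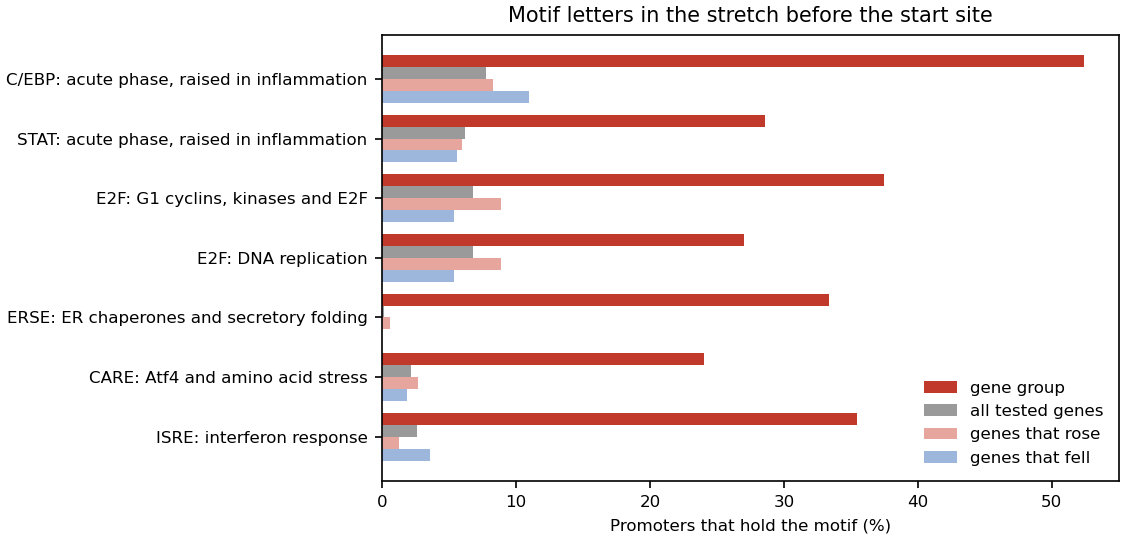
Bars give the percentage of promoters that hold the letters of each motif in the 250 bases before the start site, for the named gene group (dark red), all tested genes (grey), the genes that rose (light red) and the genes that fell (light blue). The gene groups drawn lie between 24.0% and 52.4%, while the genes that rose or fell stay at or under 11%.

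The cytoskeleton group had the highest median of those with more than 10 genes, 0.84, and 12 of its 37 genes rose with 0 falling. Tubb2a, a beta tubulin, went from 9.51 and 9.63 to 12.05 and 11.33 (2.12, SE 0.28, adjusted p = 0.018). Krt18, the keratin of hepatocytes, rose by 1.73, Tpm1, tropomyosin, by 1.6, S100a6 by 1.49, the membrane linker Ezr by 1.35 and S100a10 by 1.25. Among 36 growth factor and receptor genes 5 rose and 3 fell. Inhbe, an activin subunit made in liver, went from 6.48 and 6.71 to 8.46 and 8.96 (2.11, SE 0.21, adjusted p = 0.015), and Tgfa, a ligand of the EGF receptor, rose by 1.09. Fgfr3 fell by 1.02 and Hgfac, the activator of HGF, by 0.92. For Inhbb, the call of a fall (-0.85) depends on the probe set, since its other one gave 2.40.

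Part of the genes of fatty acid storage and oxidation rose, and part of those of fatty acid synthesis fell. Of 21 genes of lipid droplets and uptake 5 rose and 0 fell. Beside Cidec, Fabp4, a fatty acid carrier, rose by 1.83, the triglyceride lipase Pnpla2 by 1.48, the fatty acid translocase Cd36 by 1.08 and Mgll by 0.96. Of 29 oxidation genes 5 rose and 0 fell. Ehhadh, of peroxisomal oxidation, went from 9.83 and 10.16 to 11.32 and 11.11 (1.22, SE 0.16, adjusted p = 0.019), and Cpt1a, which admits fatty acids to mitochondria, rose by 0.80. Cyp4a14, which hydroxylates fatty acids, differed by 4.21 (adjusted p = 0.069), with 0 h pools of 4.45 and 8.12 that lay far apart.

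Of 24 fatty acid synthesis genes 4 fell and 2 rose. Thrsp, a lipogenic protein, went from 11.13 and 10.74 to 8.23 and 8.17 (-2.74, SE 0.30, adjusted p = 0.016), and Acss2 (-2.54), the glucose-sensing factor Mlxipl (-2.21) and the sterol-sensing factor Srebf1 (-1.96) fell with it. Elovl5 and Fads2, which make polyunsaturated fatty acids, rose by 0.86 each. Of 20 cholesterol synthesis genes 1 fell, Tm7sf2 (-0.80), a share of 5.0%, near the 5.08% of all genes. The group's median was -0.42, but -0.70 in pool 1 and -0.03 in pool 2. Of 70 oxidative phosphorylation genes 3 fell (4.29%, under the 5.08% of all genes), Ndufv3, Sdha and Ndufs8. In this group 65 lay below 0, where 52.4% of all genes did, and the median was -0.22.

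**Figure D4:**
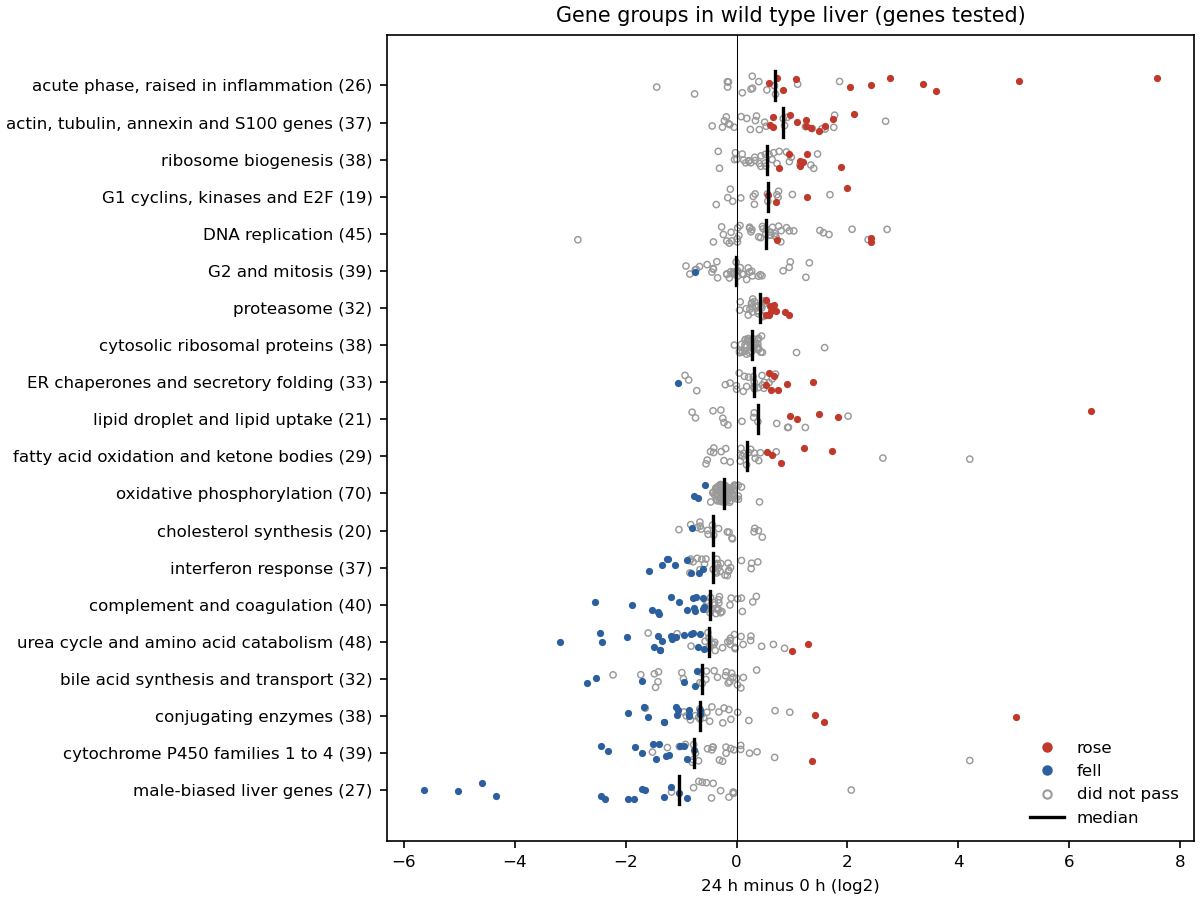
Each point is a tested gene of a group (number of genes in brackets), placed by its 24 h minus 0 h difference in log2 (x), red where it rose, blue where it fell and open where it did not pass, with the group's median as a black bar. Medians run from 0.84 for the cytoskeleton group to -1.04 for the male-biased liver genes.

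The male-biased genes of the liver, which depend on the pulses of growth hormone that males secrete, had the lowest median of those groups, -1.04. Of 27 tested 14 fell and 0 rose. Hsd3b5, a 3-ketosteroid reductase of male liver, went from 11.51 and 11.48 to 4.70 and 8.24 (-5.03, SE 1.10, adjusted p = 0.045). Clec2h went from 8.06 and 7.93 to 1.70 and 3.01, below the filter limit at 24 h (-5.64, SE 0.46, adjusted p = 0.011). Hsd3b5 was much lower in pool 1 than in pool 2 at 24 h, and both genes were well below their 0 h pools. Hsd3b2 (-4.59), Keg1 (-4.34), Cyp2u1 (-2.45), Elovl3 (-2.37), Ugt2b38 (-1.95) and Slco1a1 (-1.70) fell too, and so did Hsd3b3 (-3.49), which the list does not hold. The Hsd3b genes are close copies whose probe sets may overlap.

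Female-biased genes gave 2 rises of 19, Sult1e1 and Trim24 (1.54), and 0 falls. In the growth hormone axis Stat5b, which carries the hormone's signal, went from 8.12 and 7.85 to 6.71 and 6.62 (-1.32, SE 0.16, adjusted p = 0.016). The receptor Ghr gave 11.71 and 11.74 at 0 h and 10.57 and 10.89 at 24 h (-1.0, adjusted p = 0.10) and did not pass.

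The enzymes of detoxification fell widely. Of 39 cytochromes P450 of families 1 to 4 13 fell and 1 rose, with a median of -0.76. Cyp2c55 went from 7.87 and 8.12 to 5.51 and 5.86 (-2.31, SE 0.24, adjusted p = 0.016). Cyp1a2, an enzyme of caffeine and aromatic amines, went from 12.01 and 12.05 to 10.92 and 10.69 (-1.22, SE 0.18, adjusted p = 0.021). The exception was Cyp2b10, which the xenobiotic receptor CAR controls and which went from 8.33 and 8.66 to 10.05 and 9.65 (1.36, SE 0.19, adjusted p = 0.021). Of 38 conjugating enzymes 13 fell and 3 rose, the falls including Gsta3 (-1.68), Gsta4 (-1.60) and Ugt2b1 (-1.31), and the rises Sult1e1, Nnmt (1.57) and Gstt3 (1.41).

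Of 32 bile acid genes 6 fell and 0 rose, with a median of -0.63. Akr1d1, a reductase of bile acid synthesis, went from 10.54 and 10.69 to 7.54 and 8.31 (-2.69, SE 0.25, adjusted p = 0.014). Abcb11, the bile salt export pump, went from 10.65 and 10.80 to 7.52 and 8.86 (-2.54, SE 0.40, adjusted p = 0.024), and the uptake carrier Slc10a1 fell by 0.96. Neither gene's pools overlapped, and pool 1 was the lower at 24 h in both.

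Of 48 genes of the urea cycle and amino acid breakdown 18 fell and 2 rose, with a median of -0.50. Afmid, of tryptophan breakdown, went from 9.28 and 9.39 to 5.88 and 6.40 (-3.19, SE 0.19, adjusted p = 0.0051). Csad, of taurine synthesis, fell by 2.46, Hal, of histidine breakdown, by 2.43, and Otc, of the urea cycle, by 0.82. Mat1a, which makes S-adenosylmethionine, and Aass rose by 1.29 and 0.99. Etnppl, a phospholyase, went from 9.84 and 10.12 to 5.61 and 6.68 (-3.83), and the mitochondrial carbonic anhydrase Car5a, with 8.61 in both 0 h pools, gave 4.58 and 6.27 (-3.18). Abca8a fell by 4.45 and Nrep by 3.26. Serpinb1a, Cnmd and the gene annotated as Olfr480 fell to signals under the filter limit, where sizes are imprecise (-3.99, -4.06 and -3.40).

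Of genes high around the portal vein 6 of 17 fell and 1 rose (Apoa4), and of genes high around the central vein 3 of 21 fell and 1 rose. The median of the central group was -0.74 in pool 1 and -0.15 in pool 2. Among 28 hepatocyte transcription factors Cebpa, which restrains hepatocyte growth, fell by 1.38, from 10.25 and 10.44 to 8.72 and 9.22, while Creb3l3 (0.69) and Gata6 (0.86) rose. Of 20 glucose production genes Pygl, liver glycogen phosphorylase, fell by 1.41 and Slc2a2, the glucose transporter GLUT2, by 0.51, and Pgm2 rose by 1.86. The glycolytic enzymes Pkm and Aldoa rose by 1.01 and 1.02.

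In iron handling Tfrc, the transferrin receptor, went from 8.35 and 8.36 to 10.13 and 10.02 (1.72, SE 0.21, adjusted p = 0.016). Another Tfrc probe set at a similar level gave -0.25, and the third 1.63, neither passing. Hmox1 rose by 1.37 and the iron exporter Slc40a1 fell by 1.22. In the circadian clock group of 20 genes 1 rose and 3 fell, which are Per2 (2.12), Nr1d1 (-2.92), Nr1d2 (-0.81) and Per3 (-0.76). Nr1d1, a repressor of the clock, went from 6.59 and 7.34 to 3.77 and 4.33. The labels name no hour of the day for collection, and a difference in it cannot be told apart from the operation.

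The 2 pools at 24 h differed from each other in a patterned way. Pool 1 lay farther from the 0 h mean in 75% of the genes that rose and 77.4% of those that fell, against 61.3% of all genes. Immediate early genes, which respond to stimuli within minutes, gave a median of 0.91 in pool 1 and of -0.26 in pool 2. Btg2 gave 6.64 and 7.16 at 0 h, 9.49 in pool 1 and 6.30 in pool 2. Atf3 gave 4.93 and 5.81, then 8.07 and 5.35, and Rhob gave 7.89 and 7.86, then 9.91 and 7.71. Pool 1 was high and pool 2 within or below the 0 h range in each. Myc, the growth-promoting factor, gave 6.42 and 6.21, then 7.26 and 6.18. None of the 22 genes of this group rose and 2 fell, Dusp1 (-2.16) and Zfp36 (-1.25).

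DNA replication went the other way, with medians of 0.29 in pool 1 and 0.69 in pool 2. The proteasome (0.41 and 0.45) and the male-biased genes (-1.02 and -0.90) were close in both pools. Ribosome biogenesis gave 0.78 and 0.39, and the cytochromes P450 gave -0.90 and -0.53.

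**Figure D5:**
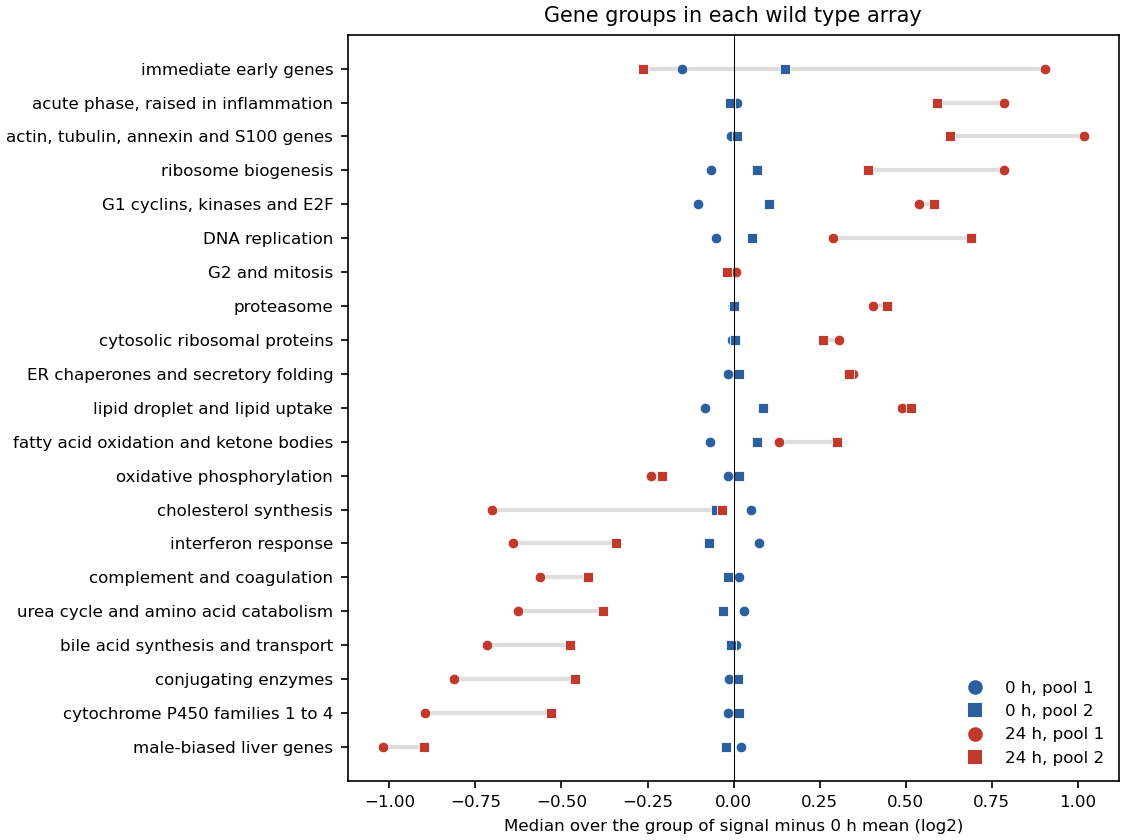
For each gene group, the median over its genes of the signal minus the mean of the 0 h pools in log2 (x), in each of the 4 wild type arrays, with circles for pool 1 and squares for pool 2, blue at 0 h and red at 24 h. The immediate early group spans 0.91 to -0.26 between the 24 h pools, while the proteasome points nearly coincide.

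Markers of other liver cells were read in the same arrays. In bulk tissue fewer cells of a type and less RNA per cell cannot be told apart. Of 10 macrophage markers 1 rose and 0 fell, with a median of -0.60 in pool 1 and -0.12 in pool 2. Marco, a scavenger receptor, went from 3.83 and 3.58 to 7.57 and 7.84 (4.0, SE 0.29, adjusted p = 0.0094). Its 0 h signals lay at the filter limit of 3.6 and its other probe set gave 1.30, so that the size is imprecise. Clec4f, specific to Kupffer cells, differed by -0.87 (adjusted p = 0.068) and Adgre1, coding for F4/80, by -0.70 (adjusted p = 0.071).

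The neutrophil genes S100a8 and S100a9 gave 8.13 and 8.34 in pool 1 and 5.57 and 5.92 in pool 2, against 3.35 to 4.78 at 0 h. Neither passed (adjusted p = 0.071 and 0.090), and the granule genes Ltf and Ngp differed by 0.03 and -0.63. Acta2, smooth muscle actin, gave 8.73 in pool 1 and 6.05 in pool 2, against 5.49 and 5.81. Of 9 stellate cell and fibroblast markers 1 fell (Col3a1, -0.87, with 0.42 from its other probe set), of 9 endothelial and 4 bile duct markers 0 passed, and of 7 lymphocyte markers 1 fell (Cd8a, -0.71). Of 2 red cell precursor markers Alas2 fell by 1.09, while Slc4a1 differed by 0.39 without passing. The part of these cells in the differences between the pools was not tested.

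The wild type response was set against that of Tob1 null liver of the same strain, age and sex, which had 2 pools at each time. The difference of the responses passed in 0 of 14450 genes (0.00%), with a smallest adjusted p of 0.30 and 1244 genes at an unadjusted p under 0.05. With a trended and robust prior 10 passed. On simulated arrays the test of the difference called 1% of genes given a log2 difference of 1 and 39% of those given 2. The absence of calls therefore does not show that the responses were alike. Among the wild type genes described here, Apoa4 rose by 4.53 in wild type and differed by 2.49 in null liver, and Cyp2c55 differed by -2.31 in wild type and by 0.23 in null liver. The median of the cholesterol group was -0.42 against 0.56, and that of DNA replication 0.54 against 1.15. None of these differences was shown by the test across genes.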

How the data were processed

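Total RNA of pooled livers was hybridised as biotin-labelled cRNA to Affymetrix arrays, per the labels' protocols. The authors deposited log2 signals per probe set; no source used here names the algorithm behind them. Because the quartiles of the deposited log2 values differed between arrays by up to 0.62 (tolerance 0.1), the 8 arrays were quantile normalised. Probe sets above each array's 40th percentile in at least 2 arrays were kept (30525), with a mean limit of 3.6. Platform annotation gave 1 gene symbol to 34945 probe sets, several to 932 and none to 9160, and each gene took its probe set with the highest mean.

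A linear model with 4 groups over all 8 arrays was fitted with limma 3.58.1 in R 4.3.3 (4 residual and 2.01 prior degrees of freedom), two-sided, with Benjamini-Hochberg adjustment over 14450 genes and a threshold of 0.05. On simulated arrays, 100 of 14450 genes were given a wild type log2 change of 1 and another 100 a change of 2. The model called 16% of the first and 74% of the second. For the difference of responses it called 1% and 39%. The wild type data gave far more calls than the simulation, so the adjustment was less strict there and these shares may not carry over. Genes that did not pass may still have changed. P-values measure the spread between pools. With 2 arrays a group, their number limits the precision.

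Same-numbered arrays deviated together with correlations from -0.20 to 0.05, so numbers were not used as pairs. The members, 52 gene lists and 20 motifs were chosen with earlier results of these data known. Named genes are the 10 largest rises and falls above the filter limit, and the 4 largest in each direction with 1 group below it. Both were taken among genes that passed without overlap, leaving out predicted genes and clones. To these come the 5 members of each list with the smallest p, and Tob1, Ccnd1, Ccne1, Ccna2, Cdk1, Mki67, Myc and Alb. Other called members are given by their difference. Other genes are given with values where a group or a pool difference turns on them and were chosen after their values were seen. The other settings were no filter or a stricter one, other scalings, probe set rules, priors and weights, a replicate block, and leaving out each array.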

Additional observations from a re-analysis of the deposited data

How the results depend on the processing

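The 1331 wild type calls became 2863 at an adjusted p under 0.1 and 16 under 0.01, 806 with median centring, 542 with no filter, 2346 with the 60th percentile filter, 2170 with 16 added before log2, 2592 with a trended and robust prior, 332 with the replicate number as a block (328 of them shared with the main calls), and 14 with the 4 wild type arrays alone. Leaving out 1 array gave 3 to 1446 calls. Values as deposited, array weights and both other probe set rules stayed within 1.5 times. The difference of responses passed in 10 genes with a trended and robust prior and in 0 under each other setting. No called gene's groups overlapped, so leaving out an array or changing the prior, weights or filter could hardly turn its direction. Kept directions under those settings therefore add little. All 169 named genes that passed kept their direction under every setting but 2. With the mean of probe sets Inhbb turned to 0.77. With the probe set of largest variance Inhbb turned to 2.40, Cct3 to -0.45 and Hspa4 to -0.33. The causes were not tested. With 2 pools a group, without pool 1 or 2 at 0 h 4 and 3 of the 169 still passed, and without pool 1 at 24 h 11, in fits that assume the lone array to vary like the other groups. The array has no detection calls here, so signals near the filter limit of 3.6 carry little information on size.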

Other observations

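Among the called genes, 656 had another kept probe set. Of those 1164 probe sets 930 (79.9%) differed in the same direction as the gene's own, and 4 passed in the opposite direction, for Emp1, Limk1, Ube2r2 and Atxn7l1. Of the 4313 kept probe sets without a gene symbol, 55 rose and 89 fell (3.34%), a lower share than the 5.34% of all 30525 kept probe sets.

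Of 21 p53 target genes Plk3, a stress-responsive kinase, rose, from 6.48 and 6.36 to 8.23 and 7.45 (1.42, SE 0.26, adjusted p = 0.030). Of 24 Nrf2 targets 1 rose, the haem oxygenase Hmox1 (1.37, adjusted p = 0.0499), and 2 fell, the carboxylesterase Ces1g (-1.30) and the aldehyde oxidase Aox1 (-1.18). Of 19 apolipoprotein and lipoprotein assembly genes, Apoc2, an activator of lipoprotein lipase, went from 10.90 and 11.22 to 12.53 and 12.41 (1.41, SE 0.17, adjusted p = 0.016). Mttp, which loads lipid onto nascent lipoproteins, rose by 0.66.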
